A study of Schizosaccharomyces pombe with 4 samples.

Results

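New histone H3 was compared between clr3-CDx2 fission yeast cells with Clr4 tethered to chromatin (ON) and clr3-CDx2 cells without tethering (OFF). The comparison rests on 2 of the 4 arrays of the study, clr3-CDx2 ON and clr3-CDx2 OFF, chosen by their labels. The other 2 arrays are wt ON and wt OFF, and they are read beside this pair only to show where it differs. All 4 strains of Schizosaccharomyces pombe carried H3-T7 and cdc25-22, a temperature-sensitive allele used to arrest cells at the G2/M boundary. The growth protocol instead names cdc22-25, and the source label calls the cells log-phase growing although the protocol describes arrest, so the arrest rests on the protocol alone. In the ON group, cells with a tetO-ade6+ reporter made TetR-Clr4 from a thiamine-repressible promoter during 20 generations in medium without thiamine. In the OFF group, the same protocol was run in medium with 5 µg/ml thiamine, which shuts the promoter, and 2.5 µg/ml tetracycline, which releases TetR from tetO. All cells grew at 26 °C, were held at 36 °C for 4 h, were treated for 2 h with 1 µM β-estradiol to switch on Cre recombinase, which put a T7 tag in place of the HA tag on H3, and were fixed with 1% formaldehyde. DNA precipitated with H3-T7 was labelled with Cy5 and whole-cell DNA (the input) with Cy3, and both were hybridized to an array with a probe every 300 bp.

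Histone H3 is wrapped with DNA into nucleosomes, and where nucleosomes are exchanged outside of DNA replication, newly made H3 enters. Transcribed genes are known for fast exchange and heterochromatin for slow exchange. Clr4 is the enzyme that methylates lysine 9 of H3 and so starts heterochromatin. Clr3 removes acetyl groups from lysine 14 of H3 within the complex SHREC and limits histone exchange in heterochromatin. What the CDx2 allele changes, and where tetO-ade6+ was inserted, is not stated in the labels. Tethering and the medium were switched together, so an effect of one cannot be told apart from an effect of the other. Total H3 was not analysed here, so few nucleosomes and little new H3 per nucleosome cannot be told apart.

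Each probe was given a level, its log2 ratio of Cy5 to Cy3 minus the array's median, so 0 is the typical probe, and a difference is the level in ON minus the level in OFF on the same log2 scale. With 1 array a side there was no replicate and no test, and an SD given with a value is the spread over its probes, not over cultures. On the clr3-CDx2 arrays the median raw Cy3 signal was 13940.5 units in ON and 7071 in OFF, and the median raw Cy5 signal was 7696.2 in ON and 5395 in OFF, against backgrounds of 39 to 64 units. Levels in ON and OFF correlated across 40740 chromosomal probes with r = 0.71, and the probe differences had an SD of 0.37. The Cy5 part of the difference had an SD of 0.34 and the Cy3 part one of 0.16, so most of the spread came with the H3-T7 channel. Mitochondrial DNA carries no histones, and its 48 probes gave a floor of -3.71 ± 0.20 in ON and -4.42 ± 0.28 in OFF (SD over probes).

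The array measured 4609 protein-coding genes by 3 or more probes, and 70 of them were at least 1.5-fold higher in clr3-CDx2 ON than in OFF (1.52%), and 35 were at least 1.5-fold lower (0.759%). After normexp background correction, which starts from unprocessed signals, 318 genes were higher and 104 lower. The median gene differed by 0.01, and 2406 genes lay above 0 (52.2%), as did 53.7% of the chromosomal probes. The higher genes had a median level of 0.78 in ON and 0.05 in OFF, so they were near the genome's typical level in OFF and well above it in ON. The lower genes had a median level of -0.51 in ON and 0.18 in OFF. Both sets differed in the H3-T7 channel: the median Cy5 part was 0.62 for the higher and -0.62 for the lower genes, while the median Cy3 part was -0.03 and 0.09. The Cy3 part was the larger one in 1 of the 70 higher genes and in 0 of the 35 lower genes. On single chromosomes, I, II and III held 28, 34 and 8 of the higher genes and 11, 19 and 5 of the lower genes. Of all measured genes they held 2084, 1699 and 826.

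**Figure D1:**
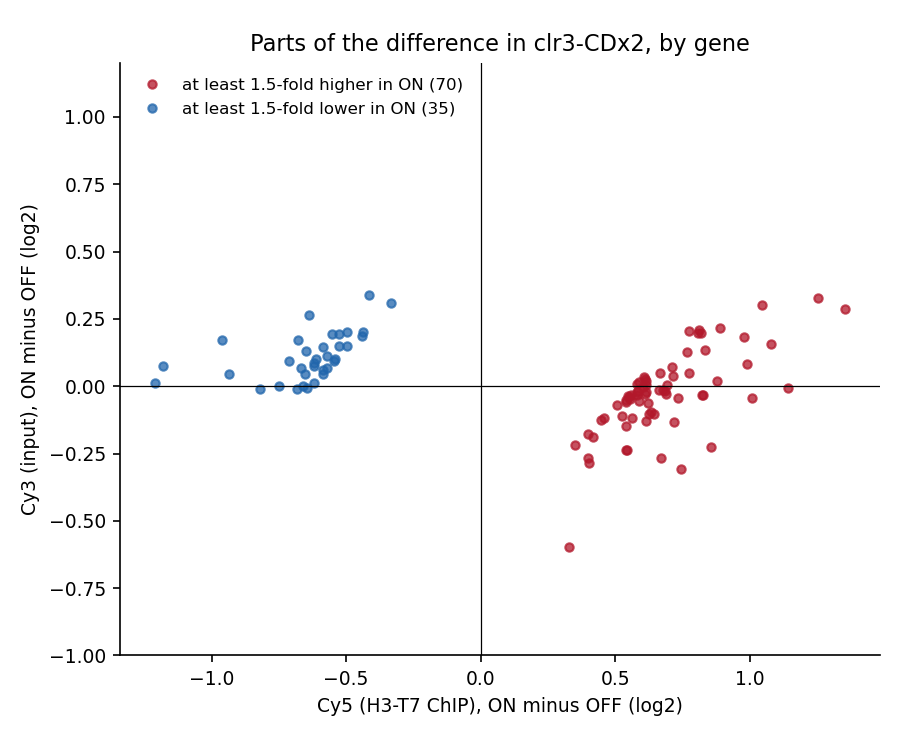
Each point is a gene that differed at least 1.5-fold, with the Cy5 (H3-T7 ChIP) part of the ON minus OFF difference in clr3-CDx2 on the x axis and the Cy3 (input) part on the y axis, both log2. The 70 higher genes lie right of 0 and the 35 lower genes left of 0, while the input parts lie around 0 apart from 1 gene at -0.60 (SPAC227.17C).

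The highest gene was fba1, which encodes the glycolytic enzyme fructose-bisphosphate aldolase: its level was 0.12 in clr3-CDx2 ON and -1.05 in clr3-CDx2 OFF, against 0.97 in wt ON and -0.61 in wt OFF. Its difference was 1.17 ± 0.55 (SD over 4 probes), with all probes higher in ON, but it was only 0.27 after normexp. Next came SPCC162.02C (0.63 in ON and -0.47 in OFF over 11 probes), SPAC8E11.10 (1.04 in ON and -0.05 in OFF) and bsu1 (0.91 in ON and -0.16 in OFF), a vitamin B6 transporter under thiamine repression. The 15 highest genes also held sua1, the ATP sulfurylase of sulfate assimilation (1.25 in ON and 0.32 in OFF), nce103, a carbonic anhydrase (0.90 in ON and -0.04 in OFF), pho1, a secreted acid phosphatase (0.38 in ON and -0.50 in OFF), and pop7, a subunit of RNase P and RNase MRP (0.47 in ON and -0.34 in OFF, and a difference of 0.46 after normexp). They also held pdc201, thi201, lsd90, SPBC23G7.10C, SPBC24C6.09C and SPAPB1A11.03, with differences between 0.87 and 1.07. The 1 of the 15 with an uneven profile was SPAC227.17C: its difference of 0.95 ± 1.18 came from 1 probe at -1.59 in OFF (0.70 in ON), while its other 2 probes differed by 0.47 and 0.07.

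The lowest gene was mug135 on chromosome III (112050 to 113431, minus strand, assembly ASM294v3), a gene named for its induction in meiosis. Its level was -0.56 in clr3-CDx2 ON and 0.68 in clr3-CDx2 OFF, against 0.18 in wt ON and 0.59 in wt OFF. From the start of the gene, its 5 probes stood at -0.43, -0.37, -0.76, -0.60 and -0.63 in ON and at 0.76, 1.24, 0.48, 0.60 and 0.32 in OFF. These probe values are what chose the gene. Next were SPAC869.01 near the right end of chromosome I (-0.92 in ON and 0.28 in OFF), SPBPB8B6.02C near the left end of chromosome II (-1.08 in ON and 0.03 in OFF) and SPCC330.07C, which lies on the other side of ura4 from mug135 (-0.99 in ON and -0.03 in OFF). Of all 4609 measured genes, 16 lay within 20 kb of ura4 and 31 within 50 kb of an end of chromosome I or II. Of the 15 lowest genes, 3 were neighbours of ura4 (mug135, SPCC330.07C and SPCC330.03C). Towards chromosome ends lay 6: SPAC977.18, SPBPB8B6.02C, fah1 and ftm5, and, more than 50 kb from the end, SPAC869.01 and SPAC869.04. The remaining 6 stood elsewhere: nas6, a proteasome assembly chaperone (-0.45 in ON and 0.43 in OFF), mrpl39, a mitochondrial ribosomal protein (-0.17 in ON and 0.57 in OFF), lin1, opi10, rpn1302, a ubiquitin receptor of the proteasome, and ely5, a nuclear pore protein, the last 4 between -0.79 and -0.70. After normexp nas6 differed by -0.34 and ely5 by -0.38, less than 1.5-fold.

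Across the 15 highest genes the difference spanned the whole transcribed unit, with medians of 1.07 in the first, 1.07 in the middle and 0.85 in the last of 3 equal parts. It was 0.61 within 1 kb upstream and 0.40 at 1 to 2 kb upstream, and 0.44 within 1 kb downstream and 0.05 at 1 to 2 kb downstream. Across the 15 lowest genes the medians were -0.78, -0.81 and -0.72 in the same parts, -0.68 within 1 kb upstream, -0.51 at 1 to 2 kb upstream, -0.77 within 1 kb downstream and -0.07 at 1 to 2 kb downstream. The values over the gene bodies are what chose these genes. In the lowest genes the first 1 kb downstream was as low as the body, and in both sets the difference was close to 0 at 1 to 2 kb downstream but not at 1 to 2 kb upstream.

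Promoter windows of 250 bases before and 50 bases after the annotated start are shown for the highest gene, the lowest gene and the highest ribosomal protein gene, rps601, from RefSeq assembly ASM294v3. In fba1 and mug135 capitals mark TGACGT on either strand, the core bound by stress-activated CREB-type factors in fission yeast, and the matches of both strands overlap in fba1. In rps601 capitals mark the HomolD box CAGTCACA, here on the other strand, which drives ribosomal protein genes.
fba1 (chrII:1688071-1688370, + strand): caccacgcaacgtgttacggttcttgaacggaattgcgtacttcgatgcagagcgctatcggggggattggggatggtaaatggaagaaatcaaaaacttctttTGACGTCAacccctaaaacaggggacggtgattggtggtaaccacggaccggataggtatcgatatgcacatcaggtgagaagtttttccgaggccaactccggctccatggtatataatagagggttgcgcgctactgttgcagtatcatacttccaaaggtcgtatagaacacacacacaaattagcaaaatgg
mug135 (chrIII:113382-113681, - strand): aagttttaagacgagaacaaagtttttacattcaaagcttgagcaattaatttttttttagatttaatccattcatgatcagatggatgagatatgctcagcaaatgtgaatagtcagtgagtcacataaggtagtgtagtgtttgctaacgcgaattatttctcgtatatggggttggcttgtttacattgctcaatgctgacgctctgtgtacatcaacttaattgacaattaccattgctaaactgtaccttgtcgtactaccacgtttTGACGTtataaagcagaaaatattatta
rps601 (chrI:187534-187833, - strand): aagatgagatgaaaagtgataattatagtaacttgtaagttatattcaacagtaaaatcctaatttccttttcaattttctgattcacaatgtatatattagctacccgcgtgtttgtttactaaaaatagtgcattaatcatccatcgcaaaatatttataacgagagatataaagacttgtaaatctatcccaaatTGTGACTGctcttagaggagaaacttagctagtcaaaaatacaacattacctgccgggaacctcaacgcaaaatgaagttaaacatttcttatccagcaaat
TGACGT stood in 6 of the 70 higher genes (8.57%) and in 3 of the 35 lower genes (8.57%), against 302 of 5112 promoters (5.91%), so it did not set the directions apart. It stood in 5 of 14 stress-activated genes (35.7%) and in 4 of 19 genes of glycolysis and fermentation (21.1%). The HomolD box stood in 35 of 50 measured ribosomal protein genes (70.0%), against 137 of all 5112 promoters (2.68%). These matches describe letters in a window and are not binding sites.

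The wt pair shares no array with the clr3-CDx2 pair. In it 110 genes were higher in ON (2.39%) and 74 were lower (1.61%). Of the 70 genes higher in clr3-CDx2, 67 lay above 0 in wt, where 49.5% of all genes did, and 38 passed 1.5-fold there, which is 54.3% of the clr3-CDx2 genes and 34.5% of the wt genes. Of the 35 lower genes, 29 lay below 0 in wt and 9 passed 1.5-fold there, which is 25.7% of the clr3-CDx2 genes and 12.2% of the wt genes. With 1 array a group, no difference between the genotypes was tested.

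Around ura4, which makes orotidine phosphate decarboxylase and often serves as a marker gene, new H3 was lower in ON than in OFF on both sides of the gene. Over the 132 probes within 20 kb the mean level was -0.30 in clr3-CDx2 ON and 0.04 in clr3-CDx2 OFF, against -0.12 in wt ON and 0.00 in wt OFF. At least 1.5-fold lower were 33 of these probes and higher were 0, while over all chromosomal probes 1929 were lower (4.73%) and 2314 higher (5.68%). The mean difference of -0.33 had a Cy5 part of -0.28 and a Cy3 part of 0.07.

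The low values formed 2 separate runs. One ran from -5.62 to -2.02 kb relative to the lower-coordinate end of ura4 (array coordinates III 109801 to 113460) and covered SPCC330.03C and mug135, with a mean level over 12 probes of -0.61 in clr3-CDx2 ON and 0.51 in clr3-CDx2 OFF. The other ran from 4.58 to 7.88 kb (III 120001 to 123360) over SPCC330.07C, with a mean over 12 probes of -1.06 in ON and 0.08 in OFF. Both differed by -1.13, with Cy5 parts of -1.02 and -0.93 and Cy3 parts of 0.13 and 0.23. In the wt pair the same stretches differed by -0.39 and -0.30 on average, so neither mean passed 1.5-fold there.

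Between the runs the picture was different. ura4 itself stood at -0.13 in clr3-CDx2 ON and 0.27 in clr3-CDx2 OFF, and its difference of -0.40 ± 0.23 (SD over 4 probes) was close to the wt one of -0.26. Its input level was 0.46 in ON and 0.45 in OFF, so ura4 was present and about equal in the DNA of both. pmp20, which encodes a peroxiredoxin and starts within 4 kb of ura4, was not lower: it stood at 0.58 in clr3-CDx2 ON and 0.32 in clr3-CDx2 OFF, against 0.66 in wt ON and -0.25 in wt OFF. Beyond the runs the differences became small, at -0.28 in alg11, a mannosyltransferase, 0.04 in enp2 and -0.11 in rhp7 and rhp16, both DNA repair genes.

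By 2-kb steps, the difference was -0.93 ± 0.26 at -6 to -4 kb and -1.24 ± 0.21 at -4 to -2 kb, where all 7 probes were at least 1.5-fold lower. It was -0.37 at -2 to 0 kb, -0.51 at 0 to 2 kb and 0.06 at 2 to 4 kb. It was again -0.88 ± 0.54 at 4 to 6 kb and -1.21 ± 0.58 at 6 to 8 kb, and -0.29 at 8 to 10 kb. The wt pair gave -0.38 at -4 to -2 kb, -0.50 at 0 to 2 kb, 0.53 at 2 to 4 kb and -0.25 at 6 to 8 kb, so the pairs had like values over ura4 itself and unlike values over the flanks. Of the 16 measured genes within 20 kb, 3 were at least 1.5-fold lower and 0 were higher, where 0.759% and 1.52% of all genes were. Their median was -0.11, against 0.01 over all genes. Since the place of tetO-ade6+ is not given, the distance of these runs from the tether is unknown.

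**Figure D2:**
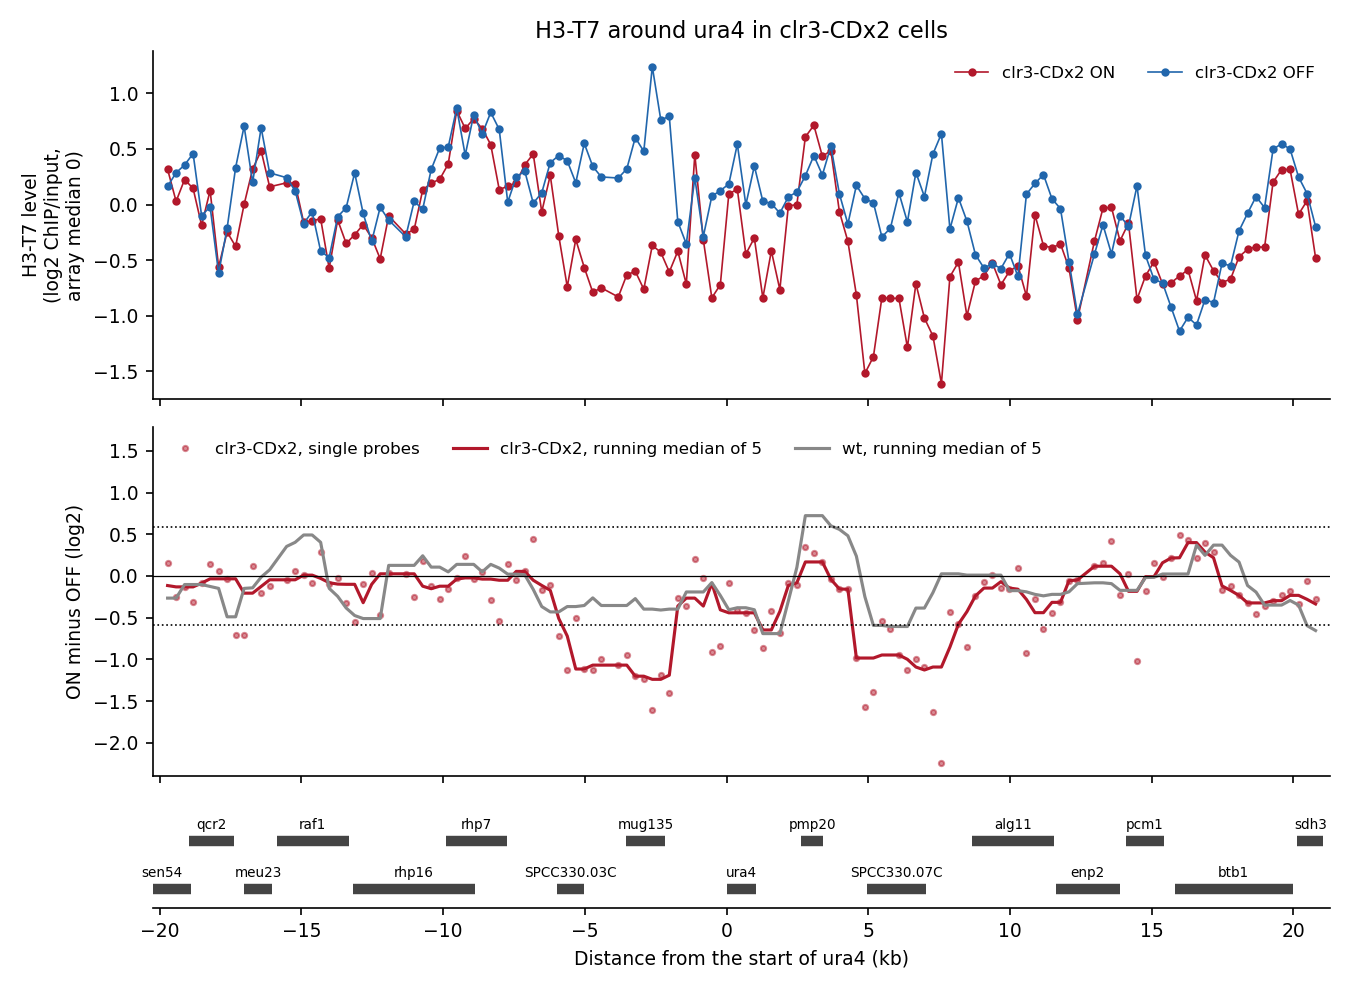
H3-T7 around ura4, by distance in kb from its lower-coordinate end. Top, level of each probe in clr3-CDx2 ON and OFF. Middle, ON minus OFF for single probes with running medians of 5 probes for clr3-CDx2 and wt (dotted lines, 1.5-fold). Bottom, genes. The clr3-CDx2 line lies below the lower dotted line over mug135 and over SPCC330.07C and returns above 0 over pmp20 between them.

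At ade6, the gene whose product acts in purine synthesis and that the reporter carries, the level was -0.33 in clr3-CDx2 ON and 0.01 in clr3-CDx2 OFF, against -0.07 in wt ON and 0.09 in wt OFF. These probes read every copy of ade6 in the strain. Its input level was 0.58 in ON and 0.45 in OFF. The 139 probes within 20 kb of the native ade6 differed by only -0.07 ± 0.32. Of these, 3 were at least 1.5-fold higher and 9 lower, against 5.68% and 4.73% of all chromosomal probes. Among 15 measured genes 0 passed 1.5-fold, where 1.52% of all genes were higher and 0.759% lower. The ade6 neighbourhood thus showed no run like those beside ura4.

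The gene lists that follow were chosen with earlier results of these data known. Their shares, set beside those of all genes, therefore describe the lists and test nothing. Of 10 thiamine-repressed genes 9 lay above 0 (52.2% of all genes did) and 3 were at least 1.5-fold higher (1.52% of all genes), with a median difference of 0.41 and a wt median of 0.39. Besides bsu1, these were thi4, an enzyme of thiamine synthesis, with 0.70 in clr3-CDx2 ON and -0.10 in OFF, and SPBC530.07C, with 0.52 in ON and -0.28 in OFF. The thiamine transporter thi9 (0.59 in ON and 0.04 in OFF) and the thiamine-repressed acid phosphatase pho4 (0.96 in ON and 0.44 in OFF) came just under 1.5-fold. The OFF medium held thiamine, which represses these genes.

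The input also moved at thiamine genes, by a median of -0.26 for the list. nmt1, the classical thiamine-repressible gene, stood at 0.36 in clr3-CDx2 ON and 0.23 in clr3-CDx2 OFF, a difference of 0.13, yet its Cy3 part was -0.45 and its Cy5 part -0.35. At thi2, an enzyme of thiazole synthesis, both channels were lower in ON, Cy5 by -1.34 and Cy3 by -0.74, and the level was -0.30 in ON and 0.27 in OFF. The wt pair had Cy5 parts of -1.01 at thi2 and -0.30 at nmt1. At other genes of the list the lower input made up much of the ratio: thi9 differed by 0.55 with a Cy5 part of 0.25, and pho4 by 0.53 with a Cy5 part of 0.22. Over the list the median Cy5 part was 0.21. What lowers the input was not tested.

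Of 19 genes of glycolysis and fermentation, 18 lay above 0 and 5 were at least 1.5-fold higher, against 52.2% and 1.52% of all genes, with a median of 0.35. They were fba1, the pyruvate decarboxylase gene pdc201 (1.23 in clr3-CDx2 ON and 0.35 in OFF), the phosphoglycerate mutase gene gpm1 (0.67 in ON and -0.05 in OFF), the glyceraldehyde phosphate dehydrogenase gene tdh1 (0.77 in ON and 0.08 in OFF) and the alcohol dehydrogenase gene adh1 (0.17 in ON and -0.46 in OFF). Only eno102, an enolase gene, lay below 0, at 0.16 in ON and 0.35 in OFF. The wt median was 0.57 with 8 of 19 higher and 1 lower, and single enzymes differed more there: eno101 by 0.35 in clr3-CDx2 and 1.35 in wt, and adh1 by 0.63 in clr3-CDx2 and 1.45 in wt. Of 8 hexose transporter genes 0 passed 1.5-fold in either direction, with a range of -0.57 in ght7 to 0.44 in ght8.

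Sulfur assimilation had the largest list median, 0.45, with 7 of 8 genes above 0 and 2 at least 1.5-fold higher (52.2% and 1.52% of all genes), sua1 and the homocysteine synthase gene met17 (1.19 in clr3-CDx2 ON and 0.43 in clr3-CDx2 OFF, against 1.15 in wt ON and 0.08 in wt OFF). The wt median was 0.20. Of 5 phosphate uptake genes, pho1 and the transporter gene pho84 (0.51 in ON and -0.10 in OFF) were at least 1.5-fold higher. A second phosphate transporter gene, pho842, differed in its mean between the pairs: it stood at -0.14 in clr3-CDx2 ON and -0.09 in clr3-CDx2 OFF, against 0.60 in wt ON and -0.36 in wt OFF. Its mean joined unlike probes. The clr3-CDx2 difference was -0.04 ± 0.61 (SD over 9 probes), with single probes from -0.98 to 0.71. In wt the SD over probes was 0.72.

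Of the heat shock genes, which encode chaperones, 14 of 14 measured lay above 0, against 52.2% of all genes. Their median difference was 0.41 (wt 0.30). Their levels were high in both states, with a median of 0.97 in clr3-CDx2 ON and 0.62 in clr3-CDx2 OFF, and cells of both groups had been held at 36 °C. The Hsp70 genes ssa2 (1.54 in ON and 0.91 in OFF) and ssa1 (1.66 in ON and 1.06 in OFF) passed 1.5-fold, as did 1.52% of all genes. Of 14 stress-activated genes 11 lay above 0 and 1, rds1, passed 1.5-fold (1.25 in ON and 0.62 in OFF), with a list median of 0.26. The catalase gene ctt1 stood at 0.83 in clr3-CDx2 ON and 0.38 in clr3-CDx2 OFF, against 0.56 in wt ON and 0.77 in wt OFF.

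Of 50 measured ribosomal protein genes 45 lay above 0, against 52.2% of all genes, with a median of 0.22 (wt 0.19). At least 1.5-fold higher was 1 of the 50, a share near the 1.52% of all genes. The highest was rps601, of the small subunit, by 0.69, and the lowest was rpl402, of the large subunit, at 0.06 in ON and 0.26 in OFF. Of 9 measured genes for histones, 8 lay above 0 and 1 passed 1.5-fold, the histone H2A gene hta2 (0.65 in ON and 0.06 in OFF), and the median was 0.37. The 3 genes for H3 stood at 0.69 in ON and 0.21 in OFF for hht1, at 0.01 in ON and -0.24 in OFF for hht2, and at 0.75 in ON and 0.48 in OFF for hht3. The variant gene pht1, for H2A.Z, stood at -0.60 in ON and -0.56 in OFF.

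Genes of the heterochromatin machinery had a median of -0.05, and 0 of 29 passed 1.5-fold in either direction. clr4 stood at -0.10 in clr3-CDx2 ON and 0.12 in clr3-CDx2 OFF, a difference of -0.22 ± 0.51 (SD over 15 probes), against 0.26 in wt ON and 0.18 in wt OFF. That mean joined opposite stretches. From the gene start, probes 1 to 6 differed by 0.08 to 0.51 and probes 7 to 15 by -1.09 to -0.19. Over probes 7 to 15 the wt pair differed by -0.23 to 0.46. Probes of clr4 can also read the clr4 part of TetR-Clr4. The gene with the highest difference was clr3 itself, the gene altered in this strain: 0.94 in clr3-CDx2 ON and 0.44 in clr3-CDx2 OFF, against -0.14 in both wt ON and wt OFF. Its Cy5 level was 0.80 in clr3-CDx2 ON and 0.40 in clr3-CDx2 OFF, against -0.18 in wt ON and -0.06 in wt OFF, while its input level lay between -0.14 and 0.07 on all 4 arrays. New H3 over clr3 was thus higher on both clr3-CDx2 arrays than on both wt arrays, and higher in ON than in OFF within the clr3-CDx2 pair. The lowest gene was mit1, the remodeller subunit of SHREC, at -0.34 in ON and 0.11 in OFF, and the wt pair differed there by -0.55.

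The other lists stayed near the median of all genes, of which 1.52% were at least 1.5-fold higher and 0.759% lower. Membrane transport and lipid genes had a median of 0.03, with 1 of 12 at least 1.5-fold higher, the plasma membrane proton pump gene pma1 (0.20 in clr3-CDx2 ON and -0.39 in clr3-CDx2 OFF, against 0.65 in wt ON and -0.43 in wt OFF). Purine synthesis had a median of 0.16 and reporter and marker loci one of 0.06, with 0 of 10 and 0 of 9 past 1.5-fold. The small medians of reporter and marker loci and of membrane transport and lipid genes turned to at lowest -0.05 and -0.01 under some alternatives, as did that of hexose transporters, to -0.02. Meiotic genes had a median of 0.03, with 1 of 14 at least 1.5-fold lower, mes1, a regulator of the second meiotic division, at -0.02 in ON and 0.60 in OFF.

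**Figure D3:**
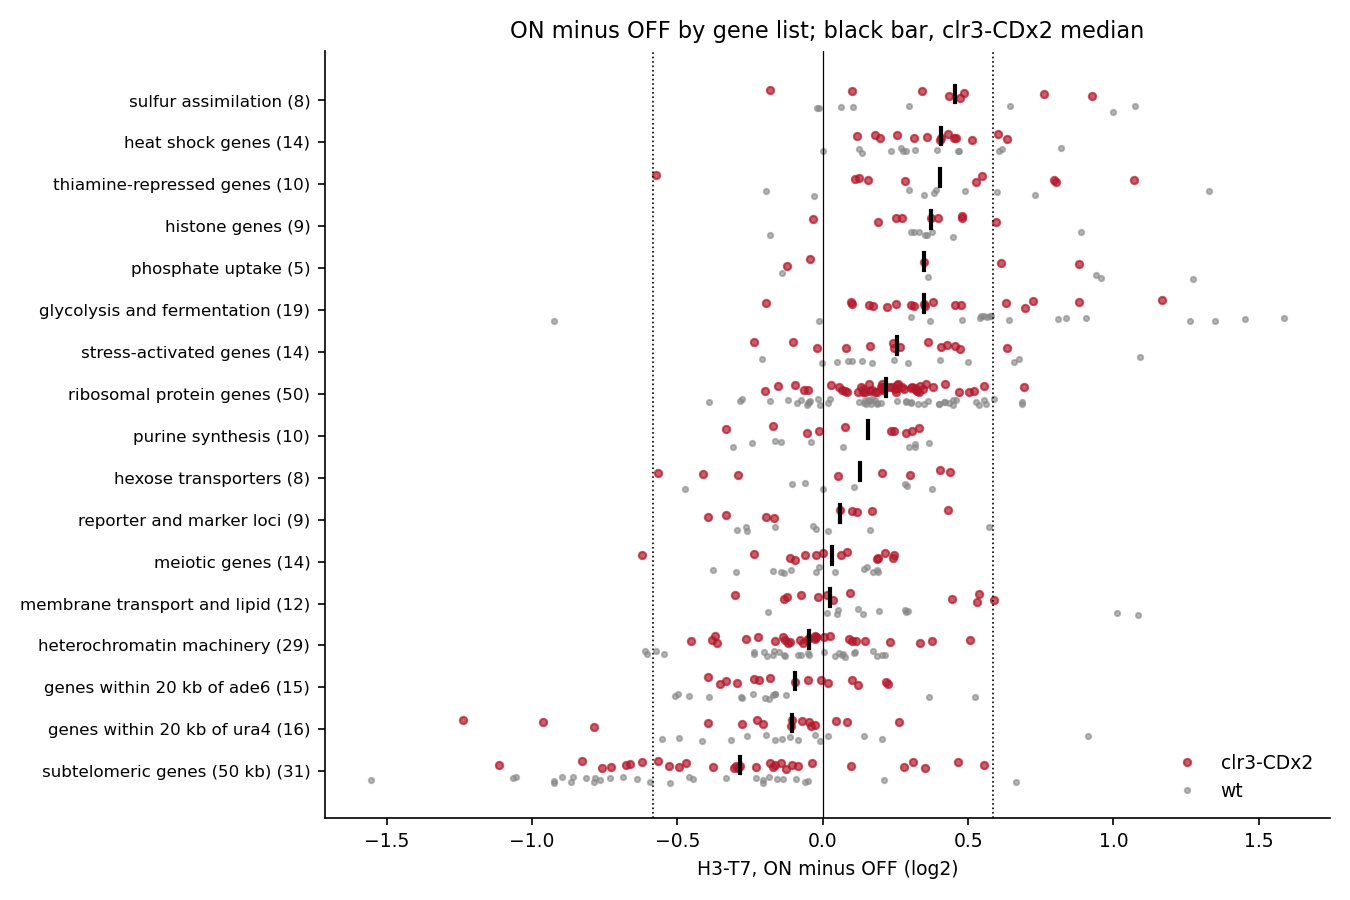
ON minus OFF (log2) of each gene by list, with clr3-CDx2 in red above wt in grey, the clr3-CDx2 median as a black bar, 1.5-fold as dotted lines, and the number of measured genes in brackets. Sulfur, heat shock and thiamine genes sit at medians of 0.45, 0.41 and 0.41, and subtelomeric genes at -0.28.

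Runs of at least 5 probes past 1.5-fold were called as domains along the chromosomes, by a running median of 5 probes. There were 100 domains higher in clr3-CDx2 ON, with a median length of 1560 bp, and 41 lower, with a median length of 1860 bp. The Cy5 part had the sign of the difference in all domains of both directions, and the Cy3 part was the larger one in 4 of the higher and 0 of the lower domains. The wt mean was above 0 in 96 of the 100 higher domains and in 3 of the 41 lower domains. Of all genes, 49.5% lay above 0 in wt. The wt pair itself had 157 higher and 58 lower domains.

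By summed difference, the first of the 6 leading lower domains spanned 8160 bp and lay 51.9 kb from the right end of chromosome I (array coordinates I 5514601 to 5522760), over SPAC869.01 and part of yhb1, which encodes a nitric oxide dioxygenase, at -0.90 in clr3-CDx2 ON and 0.13 in clr3-CDx2 OFF. In wt the same stretch was low in both states, at -1.36 in wt ON and -0.87 in wt OFF. The next pair lay near the left end of chromosome II, over SPBPB8B6.02C, grt1 and fah1 (II 42001 to 51060, -1.07 in ON and -0.18 in OFF) and beside SPBC1348.12 (II 29401 to 36360, -0.98 in ON and 0.14 in OFF). The 2 runs beside ura4 followed, and then a run by cxr1, far from both the ends and ura4 (II 3837901 to 3840960, -0.78 in ON and 0.15 in OFF).

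The leading higher domain was an end of chromosome III that borders the ribosomal DNA (III 5701 to 12960), at -1.44 in clr3-CDx2 ON and -2.54 in clr3-CDx2 OFF. Its Cy3 part was -0.66 and its Cy5 part 0.42, so most of that difference came with the input, and its probe names all carry a suffix (f or m) that no label explains. The other leading higher domains were carried by Cy5. They were the mat3 side of the mating-type region (II 2130001 to 2138160), SPCC162.02C with SPCC162.03 (III 1584001 to 1587960, 0.64 in ON and -0.40 in OFF), the left end of chromosome I (I 7201 to 12360, 0.05 in ON and -0.72 in OFF), SPAC57A7.05 (I 1535101 to 1539060, 1.12 in ON and 0.17 in OFF) and pma1 with SPAC1071.09C (I 3866101 to 3870360, 0.47 in ON and -0.37 in OFF). Suffixed probes made up 94.4% of the domain at the left end of chromosome I. Their share was 51.9% on the mat3 side and 13.3% at pma1. Within 10 kb of the ends of chromosomes I and II it was 81.1%, and at centromeres 78.1%.

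Subtelomeres are silenced chromatin next to the chromosome ends. Within 50 kb of the ends of chromosomes I and II, 481 probes had a mean level of -0.46 in clr3-CDx2 ON and -0.28 in clr3-CDx2 OFF, against -0.89 in wt ON and -0.57 in wt OFF. That mean joined stretches of opposite direction. Within 10 kb of the ends the mean was 0.04 in ON and -0.36 in OFF over 95 probes, and the ends of chromosome I carried that difference. At 25 to 50 kb it was lower in ON, at -0.62 in ON and -0.22 in OFF over 281 probes. Of these, 93 were at least 1.5-fold lower and 2 higher, against 4.73% and 5.68% of all chromosomal probes. Beyond 100 kb, in the innermost stretch compared, the mean was higher in ON again, at 0.47 in ON and 0.20 in OFF.

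The ends were not alike. At the left end of chromosome I all 35 probes within 10 kb were higher in ON, by 0.68 ± 0.26 (SD over probes), a stretch that holds tlh1, a RecQ helicase gene found at telomeres (-0.02 in clr3-CDx2 ON and -0.57 in clr3-CDx2 OFF, against 0.22 in wt ON and -0.45 in wt OFF). At the right end of chromosome I the outer 10 kb stood at -0.02 in ON and -0.43 in OFF, while at the left end of chromosome II they stood at 0.06 in ON and 0.04 in OFF, with 5 of 27 probes at least 1.5-fold higher and 5 lower. At the left end of chromosome II, 53 of 70 probes at 25 to 50 kb were at least 1.5-fold lower, with -1.01 in ON and -0.15 in OFF. At the right end of chromosome I the low stretch lay further in, at 50 to 75 kb, with -0.39 in ON and 0.13 in OFF and 45 of 83 probes at least 1.5-fold lower. The right end of chromosome II differed by -0.29 at 25 to 50 kb and by 0.46 at 75 to 100 kb, and its outer 25 kb had no probes.

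Of 31 measured subtelomeric genes, 7 were at least 1.5-fold lower and 0 were higher, where 0.759% and 1.52% of all genes were. Their median was -0.28, against 16 lower and 1 higher and a median of -0.60 in wt. The median level of these genes was -0.52 in clr3-CDx2 ON and -0.07 in clr3-CDx2 OFF, against -0.88 in wt ON and -0.24 in wt OFF. The 3 lowest were SPBPB8B6.02C, SPAC977.18 (-0.73 in clr3-CDx2 ON and 0.10 in clr3-CDx2 OFF) and fah1 (-0.83 in ON and -0.07 in OFF). At fah1 the clr3-CDx2 pair differed by -0.76, less than the wt pair with -1.56, whereas at SPBPB8B6.02C it differed by -1.11, more than the wt pair with -0.52.

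**Figure D4:**
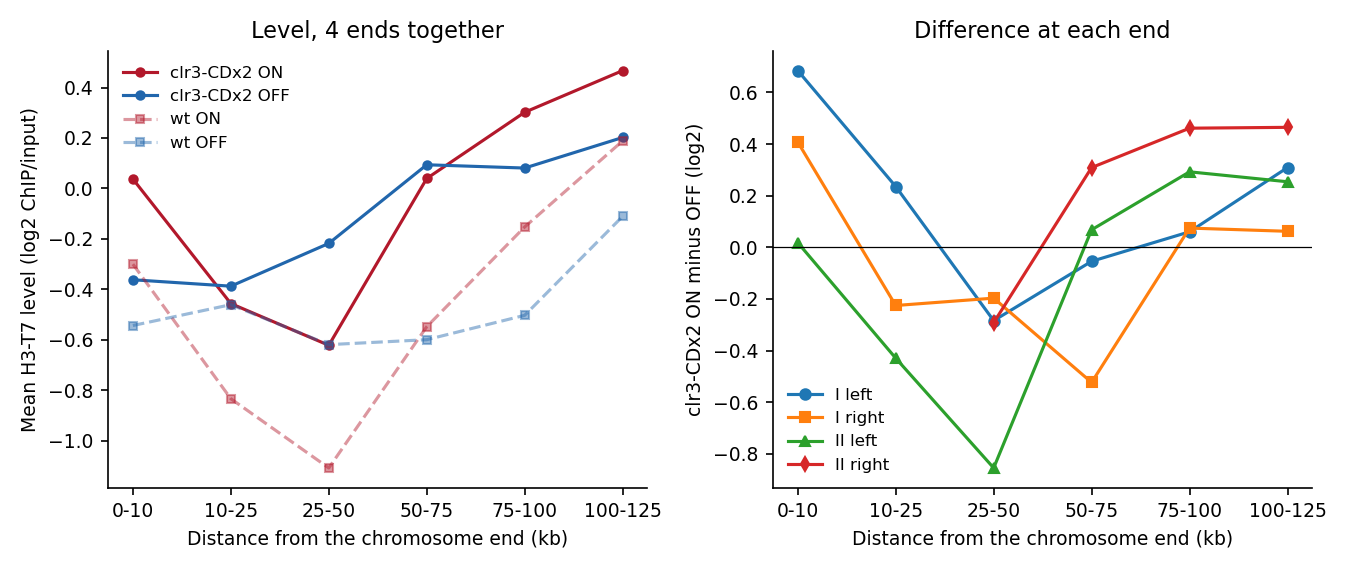
Left, mean H3-T7 level (log2) by distance from the chromosome end over the 4 ends of chromosomes I and II, in clr3-CDx2 ON and OFF (solid) and wt ON and OFF (dashed). Right, ON minus OFF in clr3-CDx2 at each end. The lowest pooled bin is 25 to 50 kb, and the left end of chromosome II reaches -0.85 there.

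The mating-type region holds the expressed mat1 cassette, the silent mat2 and mat3 cassettes and heterochromatin between them. On chromosome II, 83 probes were read from rga7 to emc3, and 51 of them lay from rga7 to rpp202, over mat1 and other genes. Their mean is therefore not one of the silent interval alone. Over the 83 probes the mean level was 0.02 in clr3-CDx2 ON and -0.46 in clr3-CDx2 OFF, against -0.19 in wt ON and -0.41 in wt OFF. Of these probes, 36 were at least 1.5-fold higher and 1 was lower, against 5.68% and 4.73% of all chromosomal probes. From rpp202, a gene for a ribosomal stalk protein, to emc3 on the mat3 side, 32 probes stood at -0.31 in clr3-CDx2 ON and -0.93 in clr3-CDx2 OFF, against -0.58 in wt ON and -0.79 in wt OFF. The difference there was 0.63 ± 0.44 in clr3-CDx2, with 30 of 32 probes above 0, and 0.20 ± 0.28 in wt.

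Next to mat1 the pairs were closer: SPBC23G7.10C stood at 0.47 in clr3-CDx2 ON and -0.60 in clr3-CDx2 OFF, against 0.11 in wt ON and -0.75 in wt OFF. The mat3-Mc and mat1-Mc genes had 2 probes each, too few for the gene list, and mat3-Mc stood at -0.27 in clr3-CDx2 ON and -1.11 in clr3-CDx2 OFF, against -0.37 in wt ON and -0.88 in wt OFF. Cassettes share sequence, so a probe can read more than 1 of them. A separate contig of the mating-type region on the array, with 109 probes, gave 0.00 in clr3-CDx2 ON and -0.45 in clr3-CDx2 OFF, in the same direction. In wt it gave -0.14 in ON and -0.47 in OFF. The pairs were closer there, with differences of 0.46 ± 0.55 in clr3-CDx2 and 0.33 ± 0.43 in wt.

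**Figure D5:**
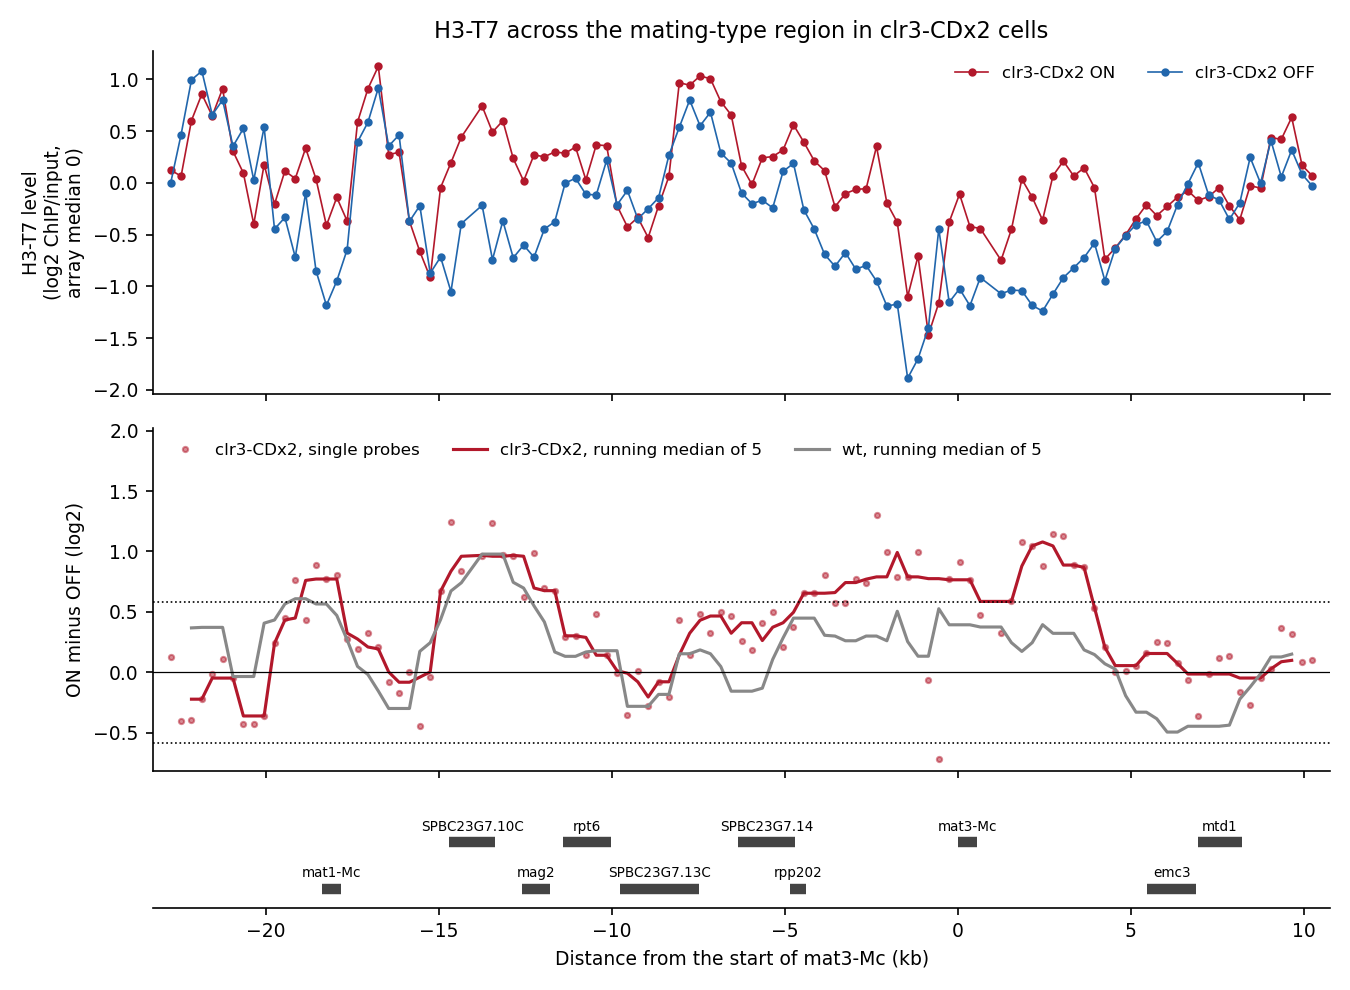
H3-T7 across the mating-type region, by distance in kb from the lower-coordinate end of mat3-Mc. Top, levels in clr3-CDx2 ON and OFF. Middle, ON minus OFF for single probes and running medians of 5 for clr3-CDx2 and wt. Bottom, genes. Around mat3-Mc the clr3-CDx2 line lies above the wt line, and next to SPBC23G7.10C the lines come together.

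Centromeres differed little: 352 probes had a mean of -1.26 in clr3-CDx2 ON and -1.37 in clr3-CDx2 OFF, against -1.27 in wt ON and -1.60 in wt OFF. Within 5 kb of the middle, where the H3 variant Cnp1 replaces H3, levels were -2.85, -2.84 and -2.79 in ON and -2.98, -2.87 and -2.92 in OFF at centromeres I, II and III. These are the lowest chromosomal values described here and lie above the mitochondrial floor. The outer parts, which are heterochromatin, stood at -1.16, -0.89 and -0.73 in ON and at -1.27, -1.03 and -0.84 in OFF. Of the 352 probes 17 were at least 1.5-fold higher and 6 lower, against 5.68% and 4.73% of all chromosomal probes.

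The rDNA ends of chromosome III stood at -1.14 in clr3-CDx2 ON and -1.80 in clr3-CDx2 OFF over 94 probes, but the Cy5 part was 0.08 and the Cy3 part -0.55, so the difference lay mainly in the input. The mitochondrial probes showed the same split, with a Cy3 part of -0.90 and a Cy5 part of -0.21. Tf2 retrotransposons were lower in ON by both channels, with a Cy5 part of -0.55, a Cy3 part of -0.30 and levels of 0.24 in ON and 0.47 in OFF over 74 probes. Both are repeats, whose probes read many copies at once. Probes within 300 bp of a tRNA gene differed by 0.07, and the 3943 probes between divergent genes differed by 0.09, against -0.02 in the last of 3 parts of genes.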

How the data were processed

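H3-T7 ChIP-chip was read from the deposited scanner files of Agilent Feature Extraction 12.0.3.1. Per the file headers, they hold a processed intensity for Cy5 and Cy3, from which background was subtracted and to which a dye factor was applied, with multiplicative detrending of both channels on the OFF arrays and of Cy3 alone on the ON arrays. Values of the deposited series matrix equal the log2 ratio of these signals for 100% of spots within a tolerance of 1e-06. The 4 arrays share a slide. Of 42968 spots per array, 1417 controls and 531 outliers were left out, and 41020 probes were used.

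Levels are log2 ratios minus the array median. No source used here names the genome build of the array. Coordinates printed for domains are those of the array, and genes of assembly ASM294v3 were placed by matching input signal to GC content over 800 bp in each chromosome arm (r of 0.25 to 0.34, at most 0.04 elsewhere). In 12 placements tested on simulated data the largest error was 60 bp, but each simulation used a constant offset along its arm. In the data, blocks of an arm gave offsets with SDs of 27.1 to 85.4 bp. In the right arm of chromosome III they ran from -920 to -730 bp. Chromosome ends took the offset found further in. A gene is the mean of its probes (at least 3), and a domain allows gaps up to 900 bp.

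Comparisons had 1 array a side and no test; the number of arrays limits precision. Alternatives changed the starting signal (normexp in limma 3.58.1 with an offset of 50, on median signals because no mean-signal column was present), detrending, scale, probe set, gene placement, summaries and thresholds. Named genes are the 15 highest and 15 lowest with at least 80% of probes on 1 side of 0, the 6 leading domains of each direction, genes within 20 kb of ura4, and list members. The lists are those named in the text, genes within 20 kb of ade6 and mating-type genes, of which 0 of 9 had 3 probes. Members and lists were chosen with earlier results of these data known. Python 3.11.15, numpy 2.4.6, pandas 2.3.3, matplotlib 3.10.9 and R 4.3.3 were used.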

Additional observations from a re-analysis of the deposited data

Results flagged for a closer look

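Some named values lay on opposite sides of 0 in the clr3-CDx2 pair and the wt pair, and with 1 array a group the difference between genotypes was not tested. SPAC227.17C was higher in ON by 0.95 in clr3-CDx2 and differed by -0.33 in wt, and 1 of its 3 probes carried the clr3-CDx2 value. nas6 differed by -0.88 in clr3-CDx2 and by 0.14 in wt, with all 4 probes below 0 in clr3-CDx2. mrpl39 differed by -0.74 in clr3-CDx2 and by 0.04 in wt. Among the list medians, reporter and marker loci differed by 0.061 in clr3-CDx2 and -0.03 in wt, and meiotic genes by 0.0315 in clr3-CDx2 and -0.02 in wt, all close to 0.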

How the results depend on the processing

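Of 173 list and region values under the alternatives, 171 moved by less than 1 SD over members or probes, as did 289 of 322 values of named genes. Normexp moved 29 of 72 values, the most of any alternative that covered genes and regions, and 0 of the called values changed sign. No paired analysis was possible because each group had 1 array and no replicate numbers. Counts depended on the threshold and on background correction. With normexp, 318 genes were higher and 104 lower, with 277 higher and 103 lower domains, and the medians were 0.63 for heat shock genes and 0.82 for sulfur assimilation. With arrays scaled to an equal median absolute deviation 45 genes were higher, and with at least 5 probes per gene 17 were lower. At 2-fold, 5 genes and 6 domains were higher and 3 genes and 5 domains were lower. The ura4 mean ranged from -0.35 to -0.18 and mug135 from -1.71 to -1.20. With normexp the centromere mean was -0.01, against 0.11, and the subtelomere mean ranged from -0.32 to -0.10. The rDNA ends and Tf2 have only suffixed probes, so no value remained without those, and the histone list had none with at least 5 probes per gene. On the clr3-CDx2 arrays at most 1 probe was not well above background, and 1 array a group gives no spread between cultures.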
